A study of Mus musculus with 165 samples.

Results

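The 42 genes described here encode proteins that carry a cell into and through mitosis. They were chosen by name for this role, not by their levels, although earlier results of these data were known at the time. They were matched by symbol to the 36255 genes of the normalized count table. All 42 were found and passed the filter on low values, as did 17414 genes in all. They comprise the CDK1 engine (Cdk1, Ccna2, Ccnb1, Ccnb2, Cdc25b and Cdc25c), the mitotic kinases (Aurka, Aurkb and Plk1), the spindle checkpoint (Bub1, Bub1b, Bub3, Mad2l1 and Ttk), and the anaphase-promoting complex (APC/C) with separase and its inhibitor (Cdc20, Ube2c, Espl1 and Pttg1). They further comprise the centromere and the chromosomal passenger complex (Cenpa, Cenpe, Cenpf, Incenp and Birc5), the kinesins (Kif11, Kif20a, Kif23, Kif2c and Kif4), spindle assembly (Tpx2, Nusap1, Prc1 and Hmmr), cytokinesis (Anln and Ect2), condensin and chromosomes (Ncapd2, Ncapg, Ncaph, Smc2, Smc4, Top2a and Mki67) and the transcription factor gene Foxm1.

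CDK1 bound to a B-type cyclin triggers entry into mitosis, and the aurora and Polo kinases act with it to build the spindle. The spindle checkpoint holds back the APC/C until every chromosome is attached, and the APC/C then marks securin and the cyclins for degradation, so that separase can part the sister chromatids. Most of these genes are transcribed late in the cell cycle, under the MuvB complex with B-MYB and FOXM1, through the cell cycle genes homology region (CHR) and CCAAT boxes of their promoters. In the myeloid lineage, progenitors divide while mature neutrophils do not, and levels of such transcripts in a population are commonly read as a mark of how many cells are cycling.

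All libraries came from PUER cells, 1 line of blood progenitors of genotype Spi1-/- (lacking PU.1) with a fusion of PU.1 and the hormone-binding part of estrogen receptor, which 4-hydroxy-tamoxifen (OHT) activates. As the source of the line, the paper names fetal liver in its introduction and bone marrow in its results. The undifferentiated cells, the start of both courses, were grown in IL3 at 5 ng/ml without OHT (3 libraries). IL3-OHT cells stayed in IL3 and received 200 nM OHT (81 libraries, 27 time points from 1h to 168h, the macrophage course). GCSF 0h cells had been moved from IL3 to 10 ng/ml GCSF 48 h earlier and had no OHT (3 libraries), and GCSF-OHT cells then received 100 nM OHT in GCSF (78 libraries, 27 time points, the neutrophil course). Thus every group shares the Spi1-/- genotype and the fusion gene, and the 2 courses differ in cytokine, pre-treatment and OHT dose together. Replicates were wells of the same line, and each time point had a plate of its own, so that plate and time cannot be told apart and p-values measure the spread between wells. At 40h, 88h and 136h the cultures received new OHT together with an exchange of part of their medium, so the 2 cannot be told apart. Trypsin was used to lift the cells at time points later than 24h, so these differed from both starts in handling as well. Of 56 groups, 53 had 3 libraries, and only 2 were given for the GCSF-OHT time points 96h, 112h and 152h. The authors excluded a pair of IL3-OHT time points. The tests here likewise omitted 96h and 144h in IL3 except where these are named.

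Libraries held 14600246 to 33147945 reads on genes (median 21960878), and the mitochondrial share of the normalized counts ran from 0.826% to 2.50%. The rarest member, Cdc25c, had 11 to 321 reads a library. The progenitor marker Kit was present in every library (1042 to 5936 in IL3-OHT). Csf1r, a defining monocyte and macrophage marker, was low in every library, with at most 56.3 normalized counts, whereas Itgam (CD11b) averaged 7612 in IL3-OHT 168h against 576 in undifferentiated cells. The neutrophil marker S100a8 averaged 190483 in GCSF-OHT 168h against 41511 in undifferentiated cells. These are single genes of longer lists. Over all time points, 9 neutrophil markers summed to 257863 to 263827 in undifferentiated cells, 352617 to 865491 in GCSF-OHT and 162822 to 392180 in IL3-OHT. In the same groups, 8 monocyte and macrophage markers summed to 23128 to 26218, 16272 to 26487 and 15297 to 34851, ranges that overlap. Lymphoid markers summed to at most 23.4.

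Promoter stretches of 6 members are shown to place the results beside the letters the cell-cycle elements are known by, and they run from 150 bases before to 20 bases after the RefSeq start on GRCm38. Capitals mark TTTGAA or its complement TTCAAA, the core of the CHR, and CCAAT or its complement ATTGG. Ccnb2, Cdk1 and Top2a stand for members that moved with the rest, and Pttg1, Cdc25b and Bub3 are members that did not follow them closely.
Ccnb2 (chr9:70421535-70421704, minus strand): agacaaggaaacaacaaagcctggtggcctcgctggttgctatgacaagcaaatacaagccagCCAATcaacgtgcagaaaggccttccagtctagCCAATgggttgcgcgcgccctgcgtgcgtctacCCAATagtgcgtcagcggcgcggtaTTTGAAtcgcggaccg
Cdk1 (chr10:69352893-69353062, minus strand): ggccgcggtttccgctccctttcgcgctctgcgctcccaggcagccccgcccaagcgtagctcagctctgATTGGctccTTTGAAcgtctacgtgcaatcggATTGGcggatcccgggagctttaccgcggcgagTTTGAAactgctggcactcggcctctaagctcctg
Top2a (chr11:99024170-99024339, minus strand): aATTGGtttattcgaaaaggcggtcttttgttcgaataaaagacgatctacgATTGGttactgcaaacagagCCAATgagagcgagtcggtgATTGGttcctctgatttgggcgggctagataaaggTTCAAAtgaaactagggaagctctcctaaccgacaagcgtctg
Pttg1 (chr11:43425962-43426131, minus strand): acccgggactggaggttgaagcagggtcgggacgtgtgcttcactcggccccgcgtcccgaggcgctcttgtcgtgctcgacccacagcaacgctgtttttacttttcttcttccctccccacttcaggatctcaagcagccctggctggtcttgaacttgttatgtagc
Cdc25b (chr2:131186798-131186967, plus strand): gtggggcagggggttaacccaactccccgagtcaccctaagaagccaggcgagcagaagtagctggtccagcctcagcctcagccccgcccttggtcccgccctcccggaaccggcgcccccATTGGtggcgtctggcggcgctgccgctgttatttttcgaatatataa
Bub3 (chr7:131560220-131560389, plus strand): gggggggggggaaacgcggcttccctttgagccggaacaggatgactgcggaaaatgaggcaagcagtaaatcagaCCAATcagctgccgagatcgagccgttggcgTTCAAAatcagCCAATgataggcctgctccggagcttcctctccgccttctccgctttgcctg

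Over windows from 250 bases before to 50 bases after each start, 34 members had a RefSeq entry, with 37 windows. TTTGAA on either strand was in 28 of the 37 windows (75.7%), against 17.9% of the 32851 windows of all genes. CCAAT on either strand was in 30 of the 37 (81.1%), against 37.4% of all windows, and both motifs were in 26 (70.3%), against 6.95%. A match of 1 motif may overlap a match of the other, and a match describes these letters only. Of the 6 shown, only the Pttg1 stretch held neither motif. The windows of Birc5, Mad2l1, Ncaph and Nusap1 also held neither, and these genes moved with the rest. Their Pearson's r with the median of the other members was 0.99, 0.96, 0.97 and 0.99. RefSeq and GENCODE starts can differ. The Mad2l1 window ended at base 66535270, before the GENCODE start at 66535390, so the bases at that start were not searched. A link between motifs and course was not tested. Aurkb, Ccna2, Cdc25c, Incenp, Kif20a, Tpx2, Smc4 and Foxm1 had no entry.

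Nearly every mitosis gene was higher after the GCSF pre-treatment. Between undifferentiated cells and GCSF 0h, 40 of the 42 members rose and 1, Pttg1, fell, while over all genes tested 13.0% were called higher and 20.7% lower. Here and below, a gene was called at an adjusted p under 0.05 (limma) and an absolute log2 difference over 0.58. The median difference of the members was 1.41 on the log2 scale, against -0.09 over all genes tested, and the remaining member, Cdc25b, differed by 0.50. In bulk RNA, a change in the number of cycling cells and a change in RNA per cell cannot be told apart, here or in any result below. The pre-treatment removed IL3 and added GCSF together, after washing and reseeding. The same undifferentiated libraries stood for the start of both courses. The loss of IL3, the gain of GCSF, the handling and time in culture therefore cannot be told apart here. The members together took 0.160% ± 0.001 (SD, n = 3) of the normalized counts in undifferentiated cells and 0.498% ± 0.033 (SD, n = 3) in GCSF 0h.

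The largest rise was that of Espl1, which encodes separase, the protease that cuts cohesin. Its normalized counts were 373, 404 and 324 in the undifferentiated libraries and 1619, 1757 and 1776 in GCSF 0h, so the groups lay far apart, and the difference was 2.23 (SE 0.08, adjusted p = 1.57e-48). Next came Kif11, the motor that pushes the spindle poles apart, at 1.86, and the checkpoint kinase gene Ttk at 1.76. All 7 condensin and chromosome genes rose, with a median of 1.58, as did all 5 kinesins, all 5 centromere and passenger genes, all 5 checkpoint genes, all 3 mitotic kinases and all 4 spindle assembly genes. When libraries were scaled to the sum of their counts instead, the median of all genes moved up by 0.21 and the share of higher calls went from 38.6% to 57.9%, and the members' median lay 1.545 above that of all genes, against 1.498 with the authors' scaling.

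**Figure D1:**
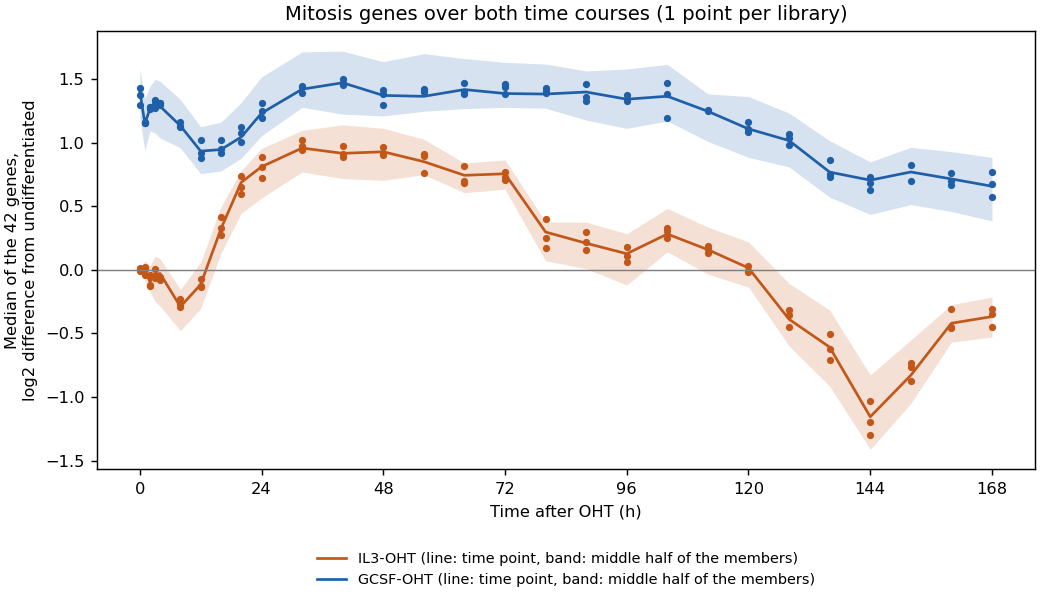
The median log2 difference of the 42 mitosis genes from undifferentiated cells (y axis) is plotted against hours after OHT (x axis), with 1 point per library, lines through the time points and bands over the middle 50% of the genes. The GCSF course starts at 1.41 and stays above the IL3 course at every time, while the IL3 course rises to 0.96 at 32h and is at -0.83 at 152h, with the 144h libraries, which the tests leave out, lower still.

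In IL3, OHT was followed by a dip, a rise and a fall. The median difference from undifferentiated cells was -0.29 at 8h, 0.32 at 16h, 0.69 at 20h, 0.96 at 32h, 0.93 at 48h and 0.76 at 72h. It then went to 0.30 at 80h, 0.02 at 120h, -0.61 at 136h, -0.83 at 152h and -0.37 at 168h. Over the whole course 41 of the 42 members changed by limma's moderated F test with a difference over 0.58 at 1 time point or more, a rule that 69.7% of all genes met. Bub3, which binds kinetochores with BUB1, was the exception, and its largest difference was 0.33. The largest difference of each gene from the start was a rise in Espl1 (1.66), Bub1 (1.62) and Anln (1.51) and a fall in Cdc20 (-1.62), Ccnb2 (-1.55) and Foxm1 (-1.49).

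At 8h, 6 members were lower than in undifferentiated cells, against 17.9% of all genes, so the members' share was not above that of all genes. They were Pttg1 (-1.45), the kinetochore gene Cenpf (-0.82), the CDK1-activating phosphatase gene Cdc25c (-0.69), Ccnb2 (-0.64), Cdk1 (-0.63) and Incenp (-0.61), the scaffold of the passenger complex. No member was called higher by limma or edgeR, and 3 were higher at an unadjusted p under 0.05. With libraries scaled to their sum, 2 were lower.

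At 48h, 38 members were higher, against 12.8% of all genes. Bub1 (1.62), Espl1 (1.48), Anln (1.34) and the condensin subunit gene Ncapg (1.34) led the rise, and Pttg1 (-0.92) was the single member called lower, as were 2966 of the 17414 genes tested. Cdc25b (0.52), Incenp (0.38) and Bub3 (0.25) were not called. At this time all 7 condensin and chromosome genes, all 5 kinesins, all 4 spindle assembly genes and all 3 kinases were higher.

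At 80h, 6 members were higher and 1 lower, against 12.8% and 16.6% of all genes, so the share called higher was close to that of all genes. The 6 were Anln (1.05), Cdc25b (1.03), Espl1 (1.01), Bub1 (0.89), Bub1b (0.74) and Aurkb (0.73), and Pttg1 (-0.96) was lower. In the step from 72h to 80h alone, 9 members fell, while 2.26% of all genes did. Kif20a, a kinesin of the central spindle, led with -0.75. Its libraries gave 1388, 1424 and 1337 at 72h but 710, 898 and 875 at 80h, and the groups did not overlap. The count for this step rested on single libraries, being 5 without replicate 1 and 17 without replicate 2, and was 22 with libraries scaled to their sum.

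At 152h, 30 members were lower and 1 higher, against 17.2% and 11.5% of all genes. Cdc20, the activator of the APC/C, fell most (-1.62), and cyclins followed with Ccnb2 at -1.55 and Ccnb1 at -1.42. All 5 kinesins and all 3 kinases were lower, 5 of 6 genes of the CDK1 engine were lower, and 2 of 7 condensin and chromosome genes were. Cdc25b was the member called higher (0.65), a call lost when libraries were scaled to their sum (0.57). In the step from 120h to 128h, 9 members fell, against 2.49% of all genes, with Ccnb1 (-0.75) in the lead. That count was 2 without replicate 2, 18 when libraries were scaled to their sum, 4 with upper-quartile scaling and 18 without the 120h libraries, whose names have another prefix than the other libraries, so that the step ran from 112h.

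At 168h, 9 members were lower and 1 higher than in undifferentiated cells, against 15.2% and 10.2% of all genes, so the share of members that fell (9 of 42) was not far from that of all genes. Ccnb1 (-0.91), Foxm1 (-0.87) and Pttg1 (-0.86) fell most, and Cdc25b rose (0.85). The others called lower were Cenpf, Plk1, Ccnb2, Aurka, Cdc20 and Kif4. The median over the members was -0.37, against -0.03 over all genes.

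**Figure D2:**
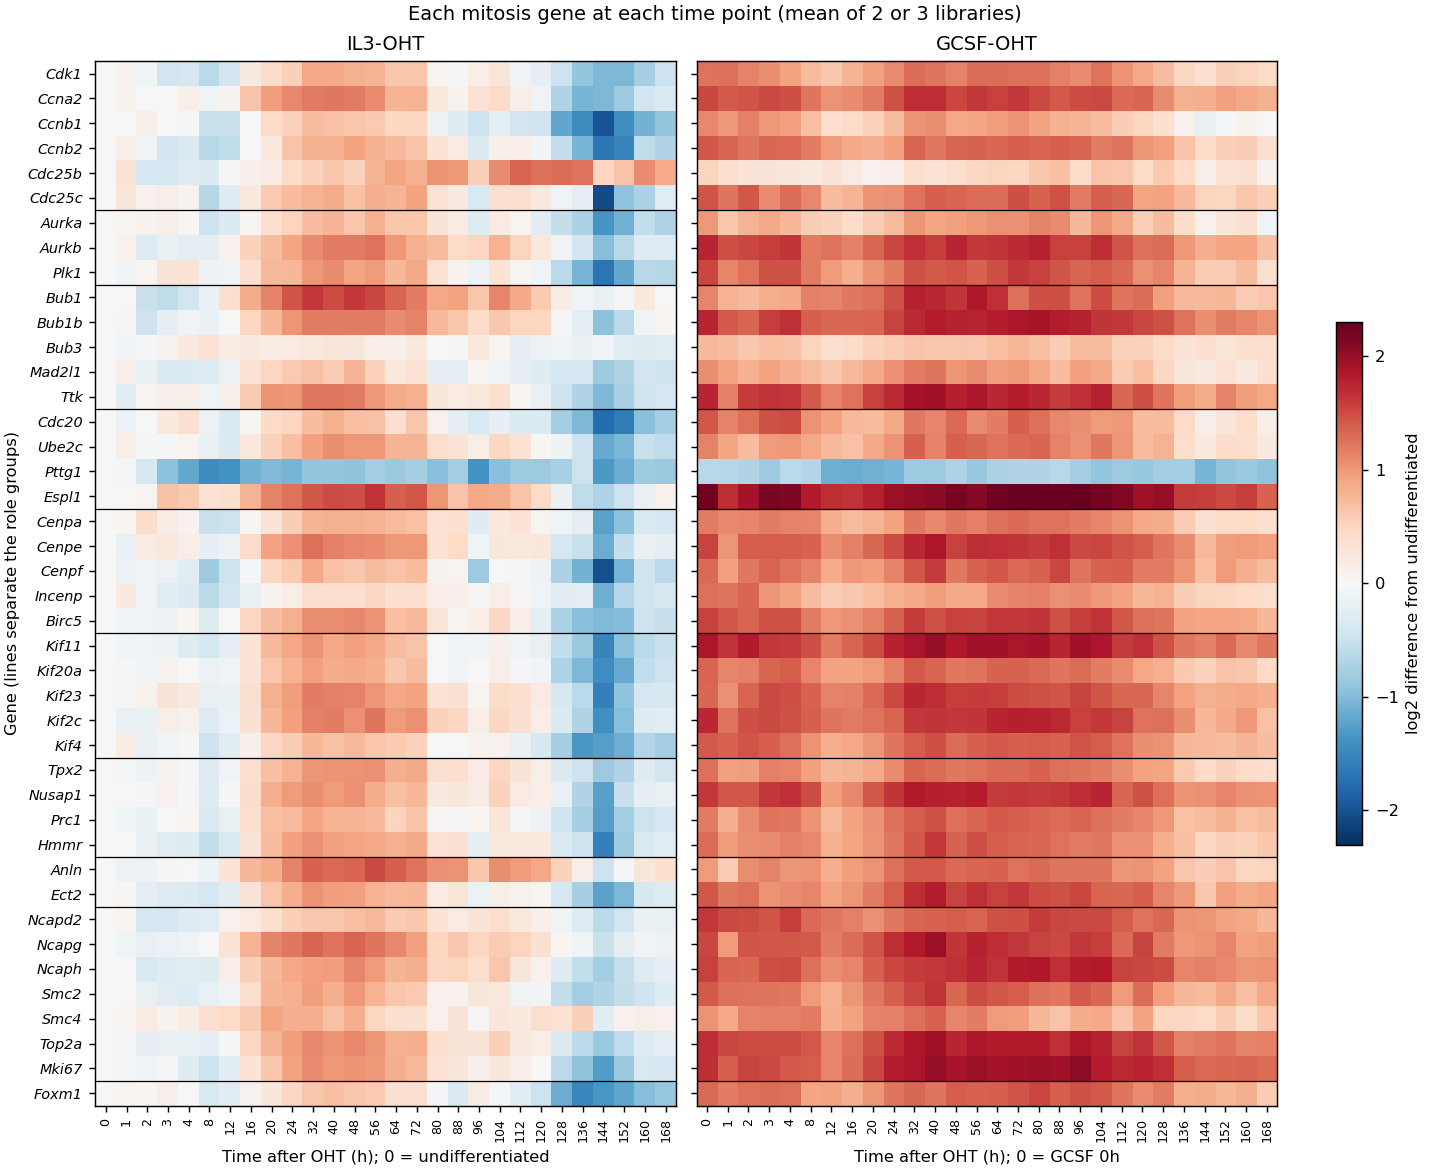
Each row is 1 of the 42 genes, grouped by role, and each column is 1 time point in hours after OHT in IL3 (left) or GCSF (right), with the log2 difference of its mean from undifferentiated cells as colour. Most rows change together, while Pttg1 stays below its start in both courses and Cdc25b is above its start late in IL3 (0.65 at 152h and 0.85 at 168h).

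In GCSF the members had already risen when OHT was added. They then dipped, were back near that level by 32h and were lower again from 136h. Against GCSF 0h, the median was -0.31 at 8h, -0.49 at 12h, -0.34 at 20h, 0.03 at 32h, -0.01 at 48h, -0.02 at 104h, -0.34 at 128h, -0.61 at 136h and -0.71 at 168h. By the test over the whole course 33 of the 42 changed, against 47.7% of all genes. Cdc25b, Bub3, Pttg1, Anln, Kif23, Prc1, Ncaph, Top2a and Mki67 were not called over the course. The largest differences were those of Cdc20 (-1.29), Ccnb1 (-1.28) and Plk1 (-1.18), and Bub1 alone had its largest difference upward (0.72 at 56h). That direction turned to -0.77 when libraries were scaled to their sum and to -0.70 without replicate 1, since a later fall was then the larger.

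At 12h in GCSF, 9 members were lower, against 3.88% of all genes. They were Cdc25c (-0.73), Ccnb1 (-0.73), Incenp (-0.69), Kif11 (-0.66), Nusap1 (-0.66), Cdk1 (-0.63), Ttk, Smc2 and Birc5. The count was 15 without replicate 1 and 22 when libraries were scaled to their sum. At 48h no member was called in either direction by limma or edgeR, against 12.6% of all genes, and 5 were higher and 4 lower at an unadjusted p under 0.05. At 144h, 29 were lower, against 14.1% of all genes, and the largest falls were in Cdc20 (-1.29) and Ccnb1 (-1.28).

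From GCSF 0h to GCSF-OHT 168h, 28 members fell and none rose, against 12.6% lower and 12.1% higher among all genes. All 42 differences were below 0 and none was above 0 at an unadjusted p under 0.05, while edgeR called 28 lower and 0 higher. The median was -0.71, against 0.00 over all genes. Cdc20 fell by 1.29 (SE 0.08, adjusted p = 3.71e-29), Plk1 by 1.18 and Ccnb1 by 1.12. By role, all 5 centromere and passenger genes, all 3 kinases and 5 of 6 genes of the CDK1 engine were called lower, and 1 of 7 condensin and chromosome genes, Ncapd2, was. Other genes of the last role lay just short of the threshold, with Ncapg at -0.57, Ncaph at -0.55 and Top2a and Smc2 at -0.53, and no test compared the roles. With libraries scaled to their sum, 40 members were lower, the median of all genes moved by -0.16, the calls among all genes went from 2110 higher and 2200 lower to 1545 and 3240, and the members' median lay -0.72 from that of all genes, against -0.71.

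Set against undifferentiated cells, GCSF-OHT 168h still had 25 members higher and 1 lower, against 15.5% and 23.6% of all genes. Espl1 (1.37), Mki67 (1.29) and Kif11 (1.21) were highest and Pttg1 (-0.93) was lower. All 7 condensin and chromosome genes were among the 25, but 1 of 3 mitotic kinases and 1 of 6 genes of the CDK1 engine were. Ccnb1 differed from its undifferentiated level by -0.01 and Aurka by -0.08.

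**Figure D3:**
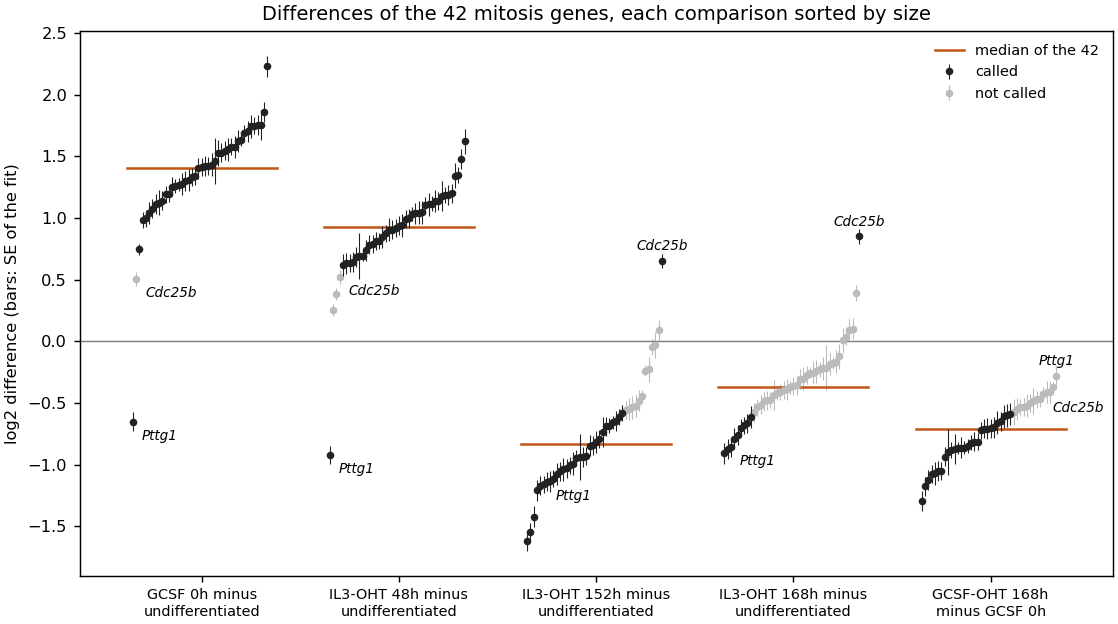
Each point is 1 mitosis gene, placed by its log2 difference (y axis, bars are the SE of the fit) in 5 comparisons (x axis) and sorted within each, with black for called genes and a line at the median of the 42. The medians are 1.41, 0.93, -0.83, -0.37 and -0.71 from left to right, and Pttg1 and Cdc25b are labelled.

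Values by library show the size of these changes within each role. In the CDK1 engine, the Ccna2 counts (cyclin A, which acts in S phase and on entry into mitosis) were 765, 815 and 813 in undifferentiated cells and 2040, 2430 and 2453 in GCSF 0h. In IL3 they were 1875, 1769 and 1856 at 48h, then 429, 516 and 396 at 152h. In GCSF-OHT 168h they were 1344, 1526 and 1370, so that these 5 groups did not overlap. Ccnb2, a B-type cyclin gene, gave 560, 492 and 526 in undifferentiated cells, 1004, 1018 and 963 at 48h in IL3 and a mean of 180 ± 25.4 (SD, n = 3) at 152h, with every library of 1 group apart from those of the others.

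Among the mitotic kinases, Plk1 counts were 645, 667 and 581 in undifferentiated cells, 1675, 1936 and 1913 in GCSF 0h and 790, 795 and 856 in GCSF-OHT 168h. Aurkb, the kinase of the passenger complex, had 648, 583 and 574 in undifferentiated cells, 1889, 2030 and 2174 in GCSF 0h and 946, 1031 and 955 in GCSF-OHT 168h. Both genes thus ended the GCSF course below GCSF 0h and above the start in every library. In IL3-OHT 152h Plk1 was at 282, 287 and 271, below every undifferentiated library.

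Of the checkpoint genes, Bub1b (BUBR1, part of the complex that restrains CDC20) had 663, 664 and 604 in undifferentiated cells and 1902, 2302 and 2310 in GCSF 0h. At 152h in IL3 it had 398, 427 and 437, below the start, and at 168h 723, 599 and 662, overlapping the start. Bub3 moved least. It had 1865, 1867 and 1776 in undifferentiated cells, 2984, 3108 and 3157 in GCSF 0h, and 1532, 1555 and 1576 at 152h in IL3.

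Cdc20 counts were 1096, 939 and 941 in undifferentiated cells, 2485, 2685 and 2799 in GCSF 0h and 1061, 1072 and 1116 in GCSF-OHT 168h, where they overlapped the start. In IL3-OHT 152h they were 284, 355 and 330. Ube2c, the ubiquitin-conjugating enzyme that works with the APC/C, had 716, 806 and 648 in undifferentiated cells, 1491, 1367 and 1459 at 48h in IL3 and 342, 386 and 316 at 152h. Both genes were at their lowest of these groups in IL3-OHT 152h.

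Cenpf had 908, 902 and 915 in undifferentiated cells, 2231, 2298 and 2231 in GCSF 0h and 493, 493 and 560 at 8h in IL3. Incenp had 1768, 1686 and 1784 in undifferentiated cells and 1119, 1181 and 1124 at 8h, so that for both genes the 8h libraries lay below those of the start without overlap. Kif11 had 700, 673 and 705 in undifferentiated cells, 2314, 2599 and 2651 in GCSF 0h and 1596, 1616 and 1605 in GCSF-OHT 168h. The kinesin remained above the start in each of these GCSF libraries.

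Tpx2, which activates aurora A on the spindle, had 1073, 996 and 1023 in undifferentiated cells, 2127, 2044 and 2143 at 48h in IL3 and 634, 638 and 652 at 152h. Prc1, which bundles the microtubules of the central spindle, had 875, 942 and 999, then 1576, 1703 and 1583, then 558, 557 and 511 in the same groups. In the cytokinesis pair, Anln (anillin, a scaffold of the contractile ring) had 662, 663 and 644, then 1643, 1658 and 1705, then 596, 641 and 676. Anln at 152h therefore overlapped its start, whereas Tpx2 and Prc1 lay below theirs. Ect2, the exchange factor that activates RhoA at the furrow, had 342, 315 and 293, then 634, 641 and 553, and at 168h in IL3 248, 263 and 257.

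Top2a, the topoisomerase that untangles sister chromatids, had 2739, 2889 and 3081 in undifferentiated cells, 8612, 9604 and 9877 in GCSF 0h and 6732, 6686 and 6007 in GCSF-OHT 168h. Mki67, which coats mitotic chromosomes, had 3634, 3646 and 3356, then 10785, 12166 and 11656, then 8775, 9016 and 8219 in the same groups. Foxm1, which encodes the activator named above, had 758, 733 and 644 in undifferentiated cells, 1626, 1780 and 1847 in GCSF 0h, and 286, 355 and 284 at 152h in IL3. In all 3 genes the groups given did not overlap.

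**Figure D4:**
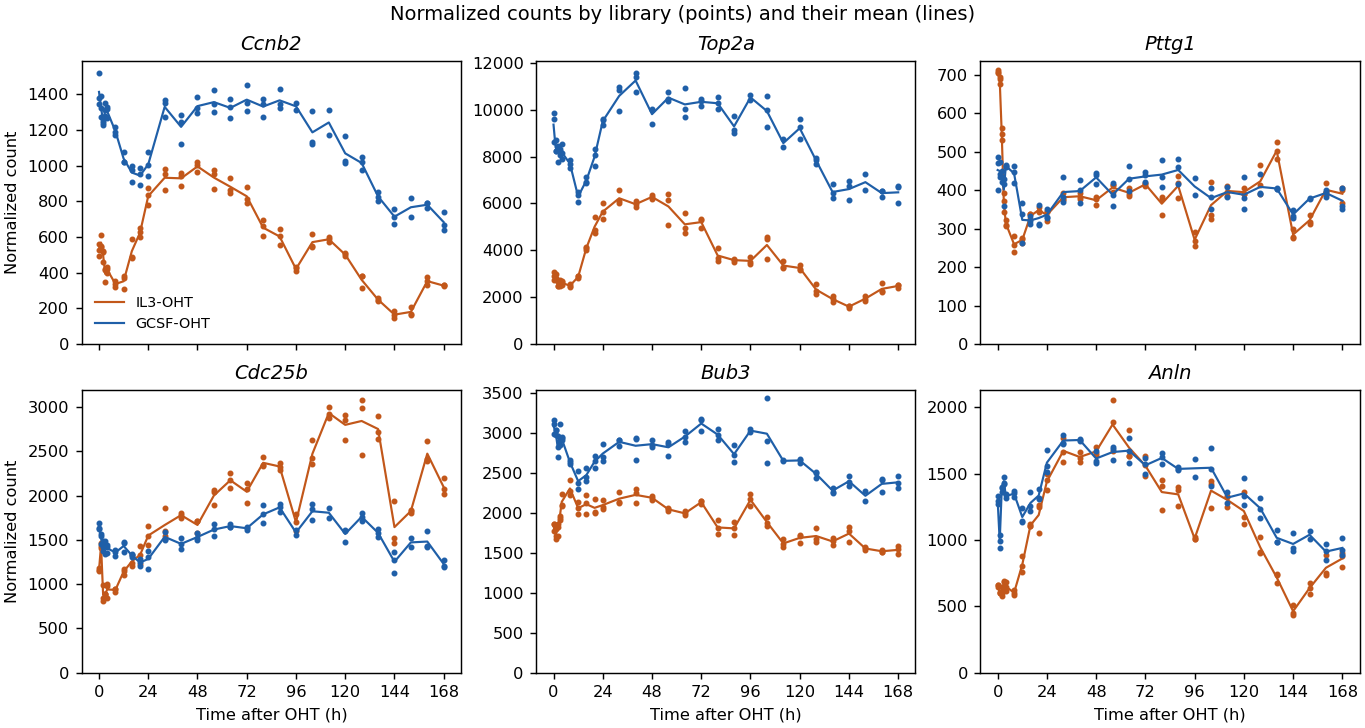
Normalized counts of 6 mitosis genes (y axes from 0) are plotted against hours after OHT (x axes), with 1 point per library and lines through the means, in IL3 (orange) and GCSF (blue). Ccnb2 and Top2a show the shape most members shared, whereas Pttg1 drops from 708 to 259 by 8h in IL3 and Cdc25b climbs to 2933 at 112h.

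The courses of most members ran together. Over the 56 groups, Pearson's r between a member's mean log2 level and the median of the other members was at least 0.9 for 36 of the 42 (median 0.98). The values describe groups that share libraries, scaling and the same 2 starting points. Within IL3 alone 36 members and within GCSF alone 26 members had an r of at least 0.9. The others over all groups were Bub3 (0.89), Smc4 (0.84), Bub1 (0.82), Anln (0.82), Pttg1 (0.16) and Cdc25b (-0.13). In IL3 the highest mean fell at 32h for 16 members, among them Cdk1, Ccnb1, Kif11 and Mki67. It fell at 40h for 5 (Plk1, Ccna2, Cdc20, Ube2c and Foxm1), and at 48h and at 56h for 8 each. Among these times the median step was -0.01 into 40h, -0.01 into 48h and -0.03 into 56h, and the order of these peaks was not tested.

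Pttg1, which encodes securin, the inhibitor of separase, took a course of its own. Its counts were 712, 708 and 705 in undifferentiated cells and 259, 240 and 280 at 8h in IL3, a difference of -1.45 (SE 0.08, adjusted p = 9.46e-36). The fall began early, with 560, 546 and 530 at 2h and 322, 308 and 310 at 4h. At 48h the counts were 383, 361 and 377, when nearly all other members were above their start. In GCSF 0h they were 400, 470 and 486, a difference of -0.65 from the start, which was not called without replicate 1 (-0.56) or with libraries scaled to their sum (-0.39). The separase gene Espl1 and the gene of its inhibitor thus had differences of opposite sign after the pre-treatment.

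Cdc25b, a phosphatase that activates CDK1 and acts early in mitotic entry, departed in the other direction. It had 1148, 1179 and 1158 in undifferentiated cells, 843, 992 and 813 at 2h in IL3, and 2923, 2876 and 2999 at 112h, above every undifferentiated library. At 168h it had 2195, 2019 and 2072 in IL3 and 1274, 1210 and 1199 in GCSF, while GCSF 0h had 1621, 1631 and 1694. The 168h libraries of the 2 cytokines did not overlap, and those in IL3 lay above, those in GCSF below, the libraries without OHT in the same cytokine.

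The cytokine comparison asked whether the members differed between the courses at the same time after OHT. Averaged over the 25 shared time points, 36 members were higher in GCSF-OHT and none lower on this average, against 9.34% and 15.1% of all genes. No member was called lower by edgeR, and 1, Cdc25b, was lower at an unadjusted p under 0.05. The median was 1.02, against -0.06 over all genes. Kif11 (1.54), Mki67 (1.46) and Espl1 (1.30) differed most. Bub1 (0.58), Smc4 (0.53), Bub3 (0.51), Anln (0.36), Pttg1 (0.05) and Cdc25b (-0.20) were not called. With libraries scaled to their sum the share of higher calls over all genes went from 38.2% to 50.7%, the median of all genes moved by 0.10 and 39 members were higher.

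The gap between the courses was not constant. At 4h, 40 members were higher in GCSF, against 11.6% of all genes, with a median of 1.32. At 24h, when the IL3 course had risen, 12 were higher, against 5.56% of all genes, and the median was 0.47. That count was 19 without replicate 1. At 152h, 38 were higher, against 10.8% of all genes, and the median was 1.59. No member was called lower in GCSF at these 3 times by limma or edgeR, while Cdc25b (-0.27 at 24h and -0.31 at 152h) was lower at an unadjusted p under 0.05. At other shared time points Cdc25b was called lower in GCSF at 6, from 112h on (-0.77 at 168h), and Pttg1 at 1, 1h (-0.61).

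**Figure D5:**
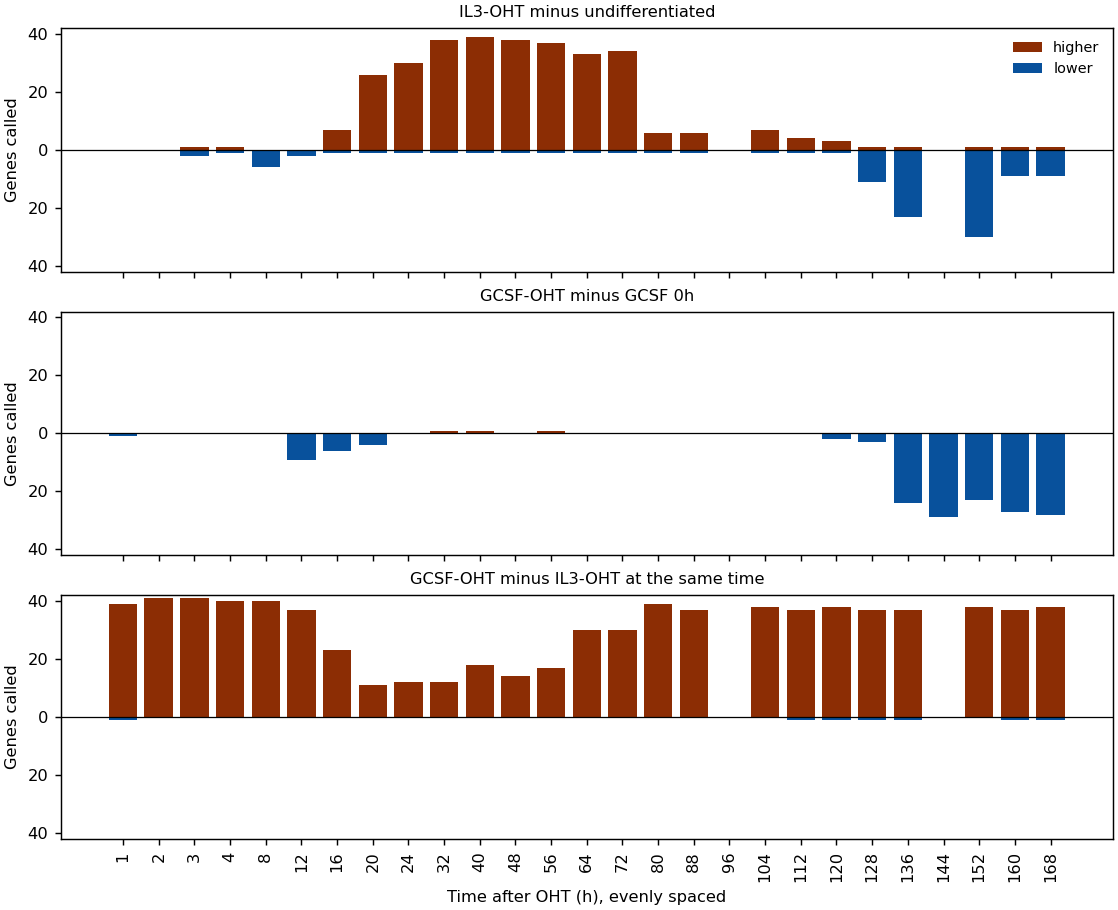
The number of mitosis genes called higher (brown, upward) or lower (blue, downward) out of 42 is plotted at each time after OHT (x axis, evenly spaced) for IL3-OHT against undifferentiated cells, GCSF-OHT against GCSF 0h and GCSF-OHT against IL3-OHT. Bars reach 38 higher at 48h and 30 lower at 152h in the top panel and 29 lower at 144h in the middle panel, and IL3-OHT 96h and 144h were not tested.

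Whether the members changed alike in both courses from the start of OHT to 168h was tested by the interaction of OHT with cytokine. That change, called the OHT effect here, was lower in GCSF than in IL3 for 8 members and higher for 1, against 11.3% and 14.5% of all genes. Cdc25b differed most, by -1.28 (SE 0.08, adjusted p = 3.38e-27), being -0.43 in GCSF and 0.85 in IL3. Espl1 followed at -0.96 and Anln at -0.86, and Pttg1 was the member in the other direction (0.58). That value lay at the threshold and was not called with edgeR (0.55) or DESeq2 (0.57), nor with a pseudocount of 5, scaling to the sum (0.44), or replicate 1 or 2 left out. When libraries were scaled to their sum, 14 members were lower, the share of higher calls over all genes went from 56.2% to 42.5% and the median of all genes moved by -0.12. The effects were taken from different starting points, GCSF 0h and undifferentiated cells. No library came from cells kept to 168h without OHT, so OHT and time in culture cannot be told apart. The courses also differed in OHT dose and pre-treatment, so the interaction is not one of cytokine alone.

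The 2 IL3 time points that the study excluded were compared with the mean of the time points before and after them. Both came after new OHT and a partial exchange of medium, at 88h and 136h, and which of these mattered was not tested. At 96h, 3 members were lower than at 88h and 104h, against 8.17% of all genes, a share no higher than that of all genes. They were Cenpf (-0.85), Cdc25c (-0.64) and Cenpa (-0.58), the centromeric histone H3. The count was 1 without replicate 3 and 1 with libraries scaled to their sum. At 144h, 10 members were lower than at 136h and 152h, against 6.76% of all genes. Cdc25c (-1.50) had 20.7, 10.2 and 18.4 normalized counts at 144h (11 to 19 reads), and 71.5, 66.0 and 45.6 at 136h. Cenpf (-0.95), Hmmr (-0.93), a spindle-pole protein gene, and Kif23 (-0.84), a kinesin of the central spindle, followed. That count was 6 without replicate 2, 16 without replicate 3 and 5 with libraries scaled to their sum. In GCSF no member was called at 96h or 144h against the neighbours by limma or edgeR, against 4.65% and 1.85% of all genes in either direction. At an unadjusted p under 0.05, 3 members were higher and 4 lower at 96h, and 1 was higher and 14 lower at 144h.

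Other genes of the cell cycle gave a frame for the members, and the shares of all genes called in each comparison are those given above. Of 67 further mitosis genes, 61 were higher and 2 lower after the pre-treatment, with a median of 1.31. At 152h in IL3, 39 of the 67 were lower and 2 higher (median -0.64), and from GCSF 0h to GCSF-OHT 168h 48 were lower and 1 higher (median -0.69). Iqgap3, which encodes a scaffold protein, went against this list, being -1.60 after the pre-treatment, 1.14 at 152h in IL3 and 1.10 after OHT in GCSF. Zwint was the other gene of the list that was lower after the pre-treatment (-1.56). It was also the 1 gene of the list lower at 48h in IL3 (-1.54), where 44 were higher.

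Of 40 DNA replication genes, 35 were higher after the pre-treatment (median 1.39), 23 were higher at 48h in IL3 (median 0.69), 19 were lower at 152h (median -0.53) and 22 were lower after OHT in GCSF (median -0.60). By contrast, of 17 genes for APC/C subunits, activators and inhibitors, 3 were higher after the pre-treatment (median 0.27), against 2261 of all 17414 genes tested. They were Fbxo5 (1.68), which encodes the APC/C inhibitor EMI1, Anapc5 (0.78) and the activator gene Fzr1 (0.69). At 152h in IL3, 4 of the 17 were lower, a share not far above that of all genes, and the median was -0.01. The replication genes did not follow the members everywhere. Compared with the neighbouring IL3 time points, their median was 0.58 at 96h and 0.18 at 144h. Every member called in these comparisons was lower.

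Of 22 regulators of cell-cycle transcription, 9 were higher and 1 lower after the pre-treatment (median 0.51), with E2f2 (2.38) highest. At 152h in IL3, 4 were lower, E2f8 (-1.41), Mybl2 (-1.34), Nfyc (-1.15) and E2f2 (-1.12), and Rb1 (1.01) was higher. The share lower was close to that of all genes at 152h, and the share higher was below it. After OHT in GCSF, Mybl2, which encodes B-MYB, fell (-1.67), while E2f2 (2.18), Rb1 (1.10) and Nfyb (0.85) rose. Of all 17414 genes tested, 2200 fell and 2110 rose, so the share that rose was close to that of all genes and the share that fell was below it.

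Of 16 CDK inhibitors and G1 cyclins, 9 were higher and 3 lower after the pre-treatment, the 3 being Cdkn2b (-2.37), Ccnd2 (-1.40) and Cdkn1a (-0.91). Cdkn1b, which encodes the CDK inhibitor p27, was higher at 48h (1.99) and 152h (2.77) in IL3 and after OHT in GCSF (1.53). At 152h Cdkn2d (1.08), Cdkn1a (0.97) and Ccne2 (0.75) were also higher, and Cdkn2b (-2.38) and Cdkn3 (-1.44) were lower. The shares lower after the pre-treatment and at 152h were not above those of all genes.

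In the annotation the 42 genes lie on 15 chromosomes. Exons of 3 members (Top2a, Ncapd2 and Foxm1) overlap another gene on the same strand and exons of 11 overlap one on the opposite strand. Ccnb1, Ccnb2 and Kif4 have named pseudogenes. How reads shared between such genes were assigned was not given in the sources used here, so these values carry that uncertainty.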

How the data were processed

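Poly(A) RNA of 165 libraries was sequenced, and each library was assigned to cytokine, time point and replicate by its label. The titles of the GCSF 0h libraries name OHT, while their treatment label and the study's methods place them before it, so these libraries count here as untreated with OHT. According to the study's methods and the submitters' processing notes, the authors quantified transcripts with Salmon on GRCm38 and divided the counts by DESeq2 size factors; how transcripts were brought to genes was not given in the sources used here. The deposited values are thus a normalized signal, the size-factor normalized counts of 36255 genes. A size factor is the median, over genes, of the ratio of a library's count to the geometric mean across libraries. A difference is thus relative to the other genes. The median over all genes tested can still differ from 0 between groups, as after the pre-treatment (-0.09). Dividing by what 1 read is worth in a library gave whole reads for 100.0% of nonzero values (largest relative deviation 9.66e-15). The floor, set at 3 reads, was a normalized count of 1.96 to 5.51 for counting error alone. The chi-square per gene of replicate pairs was 2.29 to 73.2 (162 pairs), and no pair agreed within counting error.

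The members and the gene lists were chosen with earlier results of these data known. Genes that reached a normalized count of 5 in any library entered the test in R 4.3.3 with limma 3.58.1 (1 mean per group, trend) on log2(normalized count + 1), which understates changes of low genes, with Benjamini-Hochberg adjustment over all tested genes in each comparison. The fit used 159 libraries, and all 165 for the comparisons of 96h and 144h with their neighbours. A call needed an adjusted p under 0.05 together with a log2 difference over 0.58 in size. The fit was tested on simulated data with known changes. On the recovered reads, edgeR 4.0.16 (quasi-likelihood, TMM) called 2388 genes higher after the pre-treatment, against 2261 by limma, and DESeq2 1.42.0 called 2154. Other alternatives were pseudocounts of 0.5 and 5, no filter, a mean of at least 10, upper-quartile scaling, scaling to the sum, all 165 libraries, the replicate number as a block, fits of only the 2 groups compared, each replicate left out and, added after the data were seen, the 120h libraries left out.

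Values are given for the 2 members of each role with the highest mean, the 3 called members with the largest rise and fall in each main comparison and members on the side of a count of 5 or fewer. Members whose course departed from the rest were chosen after their values were seen, as were some genes named from the lists. Promoter sequences and gene positions came from RefSeq and GENCODE on GRCm38.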

Additional observations from a re-analysis of the deposited data

Results flagged for a closer look

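The OHT effect at 168h, with the limits given above, differed between the courses for 9 of the 42 mitosis genes by the interaction test (limma, adjusted over all genes tested). Each value is the log2 effect in GCSF minus that in IL3. Over all 17414 genes tested, 1960 were lower (11.3%) and 2520 higher (14.5%). Of the 42 members, 8 were lower and 1 higher, so the share lower was above that of all genes and the share higher was below it. With both directions counted, the share of members called was not above that of all genes. The median was -0.38 over the members and 0.03 over all genes. Cdc25b differed by -1.28 (adjusted p = 3.38e-27), with an effect of -0.43 in GCSF and 0.85 in IL3. Espl1 differed by -0.96 (adjusted p = 9.36e-12), with -0.86 in GCSF and 0.10 in IL3, and Anln by -0.86 (adjusted p = 3.13e-14), with -0.47 and 0.39. Kif2c, a microtubule-depolymerizing kinesin gene, differed by -0.82 (adjusted p = 7.29e-08), with -1.07 and -0.25. Bub1b differed by -0.76 (adjusted p = 3.68e-11), with -0.72 and 0.04, and Aurkb by -0.75 (adjusted p = 1.83e-08), with -1.05 and -0.31. Ncapd2, a condensin gene, differed by -0.69 (adjusted p = 2.44e-17), with -0.87 and -0.17, and Cdc25c by -0.68 (adjusted p = 0.0259), with -0.90 and -0.21. Pttg1 was the member in the other direction, at 0.58 (adjusted p = 1.64e-06), with -0.28 in GCSF and -0.86 in IL3.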

How the results depend on the processing

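Of 320 alternative values for 24 counts of members, 303 stayed within 1.5 times the count reported, and 17, for 8 counts, did not. With libraries scaled to the sum of all genes, the interaction had 14 members lower (8 with the authors' size factors), IL3 8h 2 (6), GCSF 12h 22 (9), the IL3 step to 80h 22 (9), the step to 128h 18 (9), IL3 96h 1 (3) and IL3 144h 5 (10). Upper-quartile scaling gave 4 for the step to 128h, and leaving out the 120h libraries gave 18, the step then running from 112h. Leaving out each replicate in turn gave 7 to 15 for GCSF 12h, 5 to 17 for the step to 80h, 2 to 12 for the step to 128h, 11 to 19 for GCSF-OHT against IL3-OHT at 24h, 1 to 3 for IL3 96h and 6 to 16 for IL3 144h. Of 538 alternative values for 38 differences of named members, 523 kept direction and call, 13 kept the direction but lost the call and 2 reversed, both for the largest GCSF course difference of Bub1, from 0.72 to -0.77 with scaling to the sum and -0.70 without replicate 1, the values with 1 replicate left out running from -0.70 to 0.84. The causes were not tested. With the replicate block, GCSF-OHT against IL3-OHT had 37 members higher (36 without), and no other count of members changed. Equal replicate numbers did not pair the libraries (mean correlation of deviations 0.0003 for equal and -0.0002 for different numbers). DESeq2 was run for the 8 main comparisons only. Depth limits Cdc25c most, with 11 reads in its lowest library.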
